A study of Mus musculus with 10 samples.

Results

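The fibroblast growth factor (FGF) genes described here are the ligands *Fgf1* and *Fgf18*, the FGF homologous factors (FHFs) *Fgf11*, *Fgf12*, *Fgf13* and *Fgf14*, and the receptors *Fgfr1*, *Fgfr2*, *Fgfr3* and *Fgfrl1*. The rule is a list of symbols that names no measured value, although it was drawn up with earlier results of these data known, and the genes are 10 of the 55414 genes counted in each library. All 10 passed the filter of at least 10 counts in at least 5 libraries, which left 17490 genes. RNA of dorsal root ganglia (DRG), the clusters of sensory neurons and their glia beside the spinal cord, was sequenced in bulk from mouse embryos at E18.5. The comparison asked what the early loss of *Dach1*, which encodes a transcriptional corepressor, changed in these ganglia.

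The 5 *WD1* cKO embryos were Wnt1Cre/+; Dach1 flox/flox, so that Cre under *Wnt1* regulatory sequence acted in the neural crest, from which both the neurons and the glia of the DRG arise. The 5 control embryos lacked Cre. Per the labels' genotype entries, both groups carried Dach1 flox/flox. Those entries name Cre for the libraries titled control and no Cre for the others, and the titles were followed. The Cre allele was present only in *WD1* cKO embryos, so its presence and the deletion of *Dach1* cannot be told apart. The labels give no sex, litter or batch. *WD1* cKO mice die after birth, which limits this model to the embryo. The *Dach1* floxed line was of mixed C57Bl/6J and CD1 descent.

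FGF ligands of the classical kind are secreted, bind heparan sulfate and activate tyrosine kinase receptors, which signal through the RAS and MAP kinase cascade. FHFs share the FGF fold but stay inside the cell, where they bind the tail of voltage-gated sodium channels and tune their inactivation. In sensory neurons these channels carry the action potential, and *Fgf13* is known for its part in the excitability of nociceptors. *Fgfrl1* encodes a receptor that binds FGFs but lacks the tyrosine kinase domain.

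The start regions of *Fgf18* and *Fgf13* are shown, since *Fgf18* had the lowest p-value of the 10 genes and since the count of *Fgf13*, the gene with the highest level, sums transcripts from several starts. Each run holds the 250 bases before a RefSeq transcript start (build GRCm38.p6, whereas the reads were counted on GRCm39), read along the gene's strand, which is minus for both. The runs are *Fgf18* at chr11:33147401-33147650, the second *Fgf13* start at chrX:59567349-59567598 and the third at chrX:59166089-59166338. Capitals mark a GC box (GGGCGG, or CCGCCC on the other strand), a TATA box (TATAAA or TTTATA) or a CCAAT box (CCAAT or ATTGG).
Fgf18 start: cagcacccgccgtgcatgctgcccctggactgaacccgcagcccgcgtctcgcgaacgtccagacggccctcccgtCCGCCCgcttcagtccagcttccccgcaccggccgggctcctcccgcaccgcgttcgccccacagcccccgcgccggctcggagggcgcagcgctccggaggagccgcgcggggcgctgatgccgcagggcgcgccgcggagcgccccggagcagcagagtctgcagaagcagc
Fgf13 start 2: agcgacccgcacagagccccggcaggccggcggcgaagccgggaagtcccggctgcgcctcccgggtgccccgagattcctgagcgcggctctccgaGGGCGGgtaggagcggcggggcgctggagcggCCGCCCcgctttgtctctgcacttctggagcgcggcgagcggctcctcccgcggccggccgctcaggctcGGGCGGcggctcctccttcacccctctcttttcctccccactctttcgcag
Fgf13 start 3: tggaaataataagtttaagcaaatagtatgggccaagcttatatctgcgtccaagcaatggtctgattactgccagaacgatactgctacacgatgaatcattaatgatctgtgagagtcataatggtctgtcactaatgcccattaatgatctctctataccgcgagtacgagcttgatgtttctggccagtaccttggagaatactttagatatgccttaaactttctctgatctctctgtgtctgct

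The *Fgf18* run was dense in CpG, with 37 CpG dinucleotides, and 97.8% of the 32841 promoters of the table had fewer. It held 1 GC box and neither of the other motifs. The second *Fgf13* start held 33 CpG and 3 GC boxes, whereas the third held 6 CpG and no marked motif. Of the 4 *Fgf13* starts, the first held 2 CpG and 1 CCAAT box, and the fourth held 31 CpG and 4 GC boxes. A GC box was found in 32.7%, a TATA box in 12.4% and a CCAAT box in 33.9% of all promoters of the table. These matches are descriptions of the letters. The counts are per gene and do not show which start was used. Start regions were taken for 8 of the 10 genes, and sequence of *Fgf1* and *Fgfr1* is not shown. The selection left out chromosome 18, where *Fgf1* lies.

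Control libraries held 20465132 to 27528784 counts each and *WD1* cKO libraries 19757596 to 34796562. *Dach1*, the targeted gene, was at 35.1, 38.5, 41.6, 37.1 and 37.4 CPM (counts scaled to the size of the library) in control replicates 1 to 5 and at 19.1, 20.7, 19.5, 20.3 and 20.4 CPM in *WD1* cKO replicates 1 to 5, so that every library matched the group of its title. The count covers all exons, so transcripts that lack only the deleted exon still enter it. All 10 neuronal and all 10 glial markers were detected in every library, and their summed levels overlapped between the groups. Blood markers summed to between 156 and 2507 CPM in control and between 190 and 1149 CPM in *WD1* cKO libraries, and markers of spinal cord to 57.0 CPM in control replicate 3 against 22.3 to 33.3 CPM elsewhere. Muscle markers summed to 226 CPM in control replicate 5 against 26.2 to 138 CPM elsewhere. The part of muscle in the levels of the FGF genes was not tested. *Xist* was at 3.39 to 4.85 CPM in control replicates 1, 3 and 4 and *WD1* cKO replicate 2, and at 958 to 1169 CPM in the other libraries, so the groups were unequal in it.

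Of the 10 FGF genes, *Fgf18* was the one with an unadjusted p-value under 0.05, and it was lower in *WD1* cKO embryos. No FGF gene passed an adjusted p-value of 0.05 in edgeR's quasi-likelihood test or the study's cut-off, which asks for p below 0.005 before adjustment and a log2 change of more than 0.15 in either direction. The adjusted p-value was 1.00 for each of the 10. Among all genes tested, 0.04% had an adjusted p-value under 0.05, 0.383% passed the study's cut-off and 4.5% had an unadjusted p-value under 0.05, made up of 2.38% lower and 2.12% higher. The groups overlapped for all 10, whereas they did not for 1.06% of all genes tested. The fitted values were lower in *WD1* cKO embryos for 7 of the 10 and higher for 3, beside 49.9% and 50.1% of all genes tested, with a median log2 fold change of -0.03 beside 0.00022 over all genes. These p-values set the difference between the groups against the spread between the libraries of a group. In bulk RNA, fewer cells of a type and less RNA per cell cannot be told apart.

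**Figure D1:**
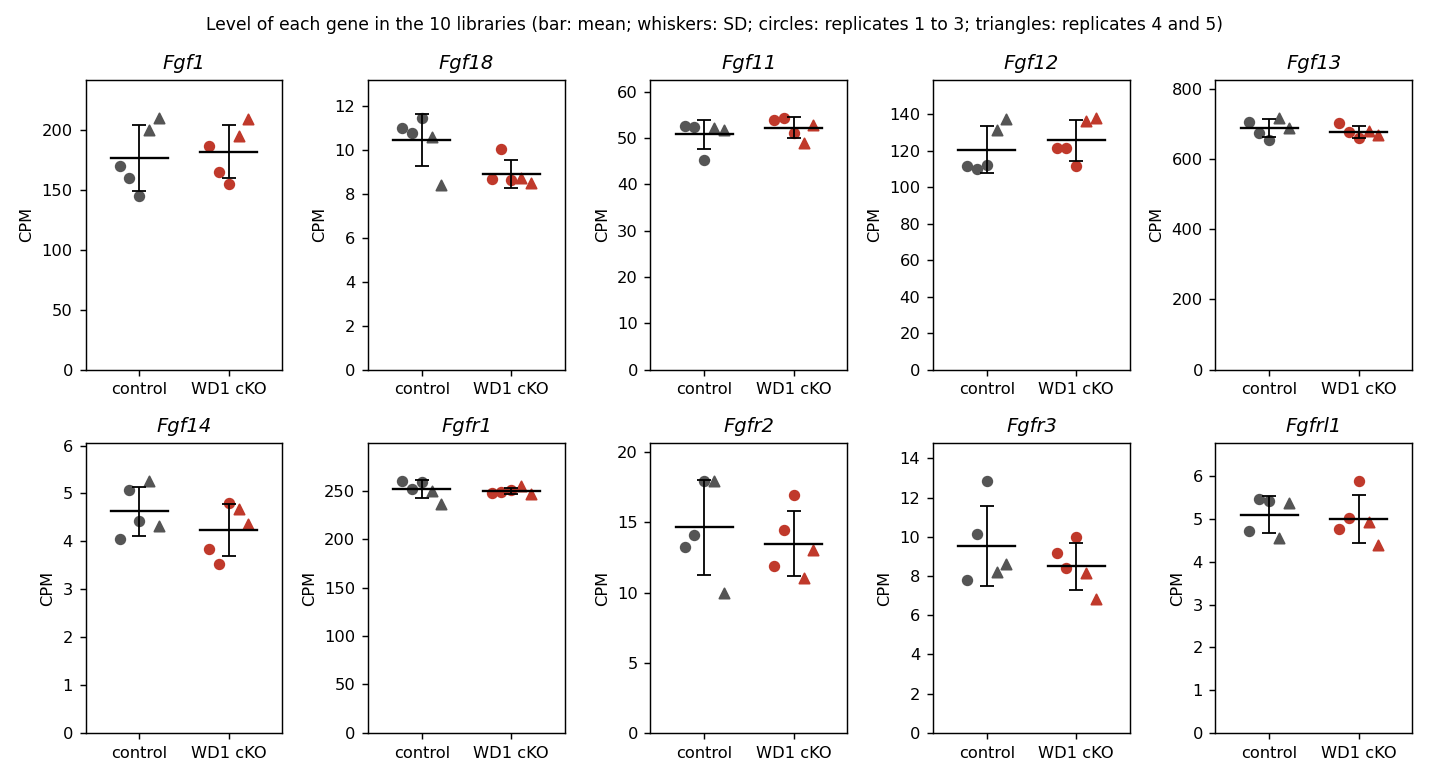
CPM of the 10 FGF genes (vertical axes, each from 0) in the 5 control and 5 *WD1* cKO libraries, with circles for replicates 1 to 3, triangles for replicates 4 and 5, a bar at the mean and whiskers for the SD. The groups overlap in every panel, and in *Fgf1* and *Fgf12* the triangles lie above the circles in both groups.

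Among the ligands, *Fgf18*, which encodes an FGF known for its part in skeletal and lung growth, was at 11.02, 10.8, 11.5, 10.6 and 8.40 CPM in control replicates 1 to 5. In *WD1* cKO replicates 1 to 5 it was at 8.68, 10.03, 8.64, 8.74 and 8.52 CPM. Control replicates 1 to 4 lay above all 5 *WD1* cKO libraries, while control replicate 5 was the lowest of the 10, so that the groups overlapped. The mean was 10.5 ± 1.19 CPM (SD, n = 5) in control and 8.92 ± 0.626 CPM (SD, n = 5) in *WD1* cKO embryos, a log2 fold change of -0.23 with a standard error of 0.088 and a 95% interval from -0.42 to -0.037. The unadjusted p-value was 0.0229 in edgeR, with an adjusted p-value of 1.00, and the exact two-sided permutation test over the libraries gave p = 0.0476, where the smallest possible is 0.00794. Without control replicate 5 the log2 fold change was -0.30 (edgeR, unadjusted p = 0.00132, adjusted p = 0.716), which passes the study's cut-off. That was the lowest of the 10 values with each library left out in turn. The highest was -0.19, without control replicate 3 (edgeR, unadjusted p = 0.0582). With the level of *Xist* as a covariate the log2 fold change was -0.15 (edgeR, unadjusted p = 0.0936). The *Xist* level was low in the *WD1* cKO library with the most *Fgf18* and high in the control library with the least. Control replicate 2, with the highest *Xist* level at 1169 CPM, held 10.8 CPM of *Fgf18*, within the range of the controls with low *Xist*. The cause was not tested. *Fgf18* was counted 172 to 295 times per library.

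*Fgf18* (ENSMUSG00000057967) lies on chromosome 11 of GRCm39 from 33067430 to 33097400, on the same chromosome as *H2az2*, where the transgene of this *Wnt1* Cre line is known to have inserted. *H2az2* was at 24.4 ± 1.88 CPM (SD, n = 5) in control and 12.5 ± 1.04 CPM (SD, n = 5) in *WD1* cKO embryos (edgeR, log2 fold change -0.96, adjusted p = 7.4e-05). Of the 20 tested genes nearest to *Fgf18*, 10 on each side in the GRCm38 gene order, 6 had an unadjusted p-value under 0.05, beside 5% of the 1341 genes tested on chromosome 11, and none had an adjusted p-value under 0.05. *H2az2* was not among these 20 neighbours, and its distance from *Fgf18* is not given here. Of these neighbours, 9 had lower and 11 higher fitted values, with a median log2 fold change of 0.06. The part of the inserted allele in these values was not tested.

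Among these 6, *Stk10*, which encodes a serine/threonine kinase, and *Sh3pxd2b*, which encodes an adaptor of podosomes, had the lowest p-values. *Stk10* was at 20.5, 29.0, 14.3, 19.9 and 21.0 CPM in control replicates 1 to 5 and at 13.6, 15.01, 14.1, 13.1 and 13.4 CPM in *WD1* cKO replicates 1 to 5 (edgeR, log2 fold change -0.60, SE 0.14, unadjusted p = 0.00106, adjusted p = 0.753). *Sh3pxd2b* was at 206, 250, 175, 203 and 189 CPM and at 174, 168, 165, 156 and 137 CPM, respectively (edgeR, log2 fold change -0.35, SE 0.088, unadjusted p = 0.00175, adjusted p = 0.843). In *Stk10* the groups met at control replicate 3, whereas in *Sh3pxd2b* every control library lay above every *WD1* cKO library. The globin gene *Hbq1b* and the potassium channel partner gene *Kcnip1* also had lower values, with log2 fold changes of -1.48 (edgeR, unadjusted p = 0.00756) and -0.21 (edgeR, unadjusted p = 0.0307). *Hbq1b* was near the floor, at 0.717 ± 0.396 CPM in control and 0.247 ± 0.165 CPM in *WD1* cKO embryos (SD, n = 5 each). It stood beside the uneven blood markers given above, and their part in it was not tested. *Fbxw11*, the direct neighbour of *Fgf18*, and *Fam196b* had higher values, with log2 fold changes of 0.10 (edgeR, unadjusted p = 0.0116) and 0.34 (edgeR, unadjusted p = 0.0117).

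**Figure D2:**
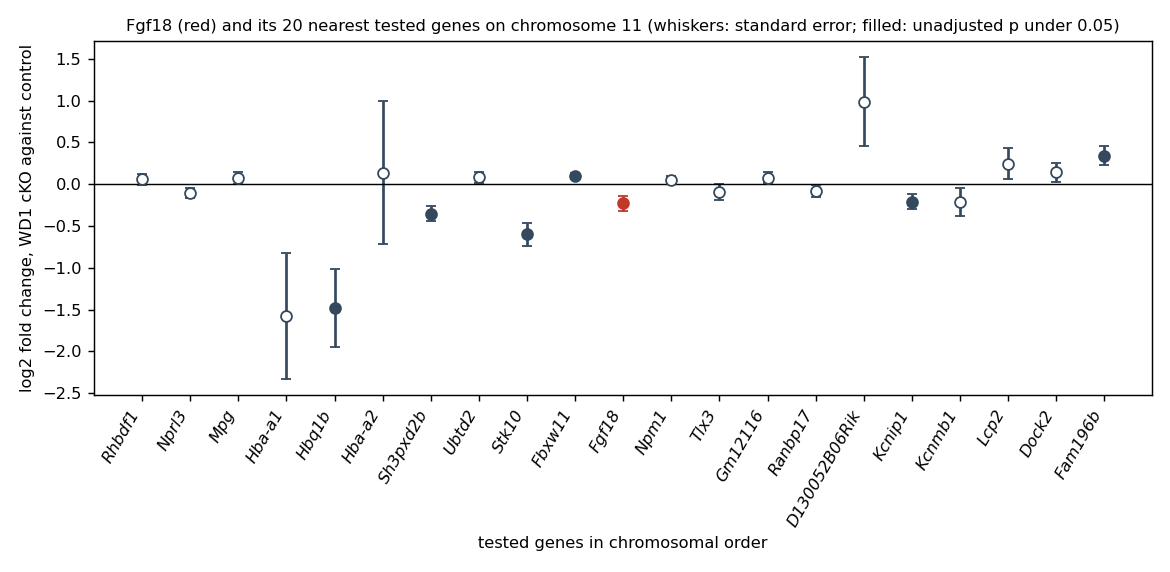
Log2 fold change of *WD1* cKO against control (vertical axis) for *Fgf18* and the 20 nearest tested genes in their order on chromosome 11 (horizontal axis), with standard errors as whiskers and filled points for an unadjusted p-value under 0.05. *Fgf18* at -0.23 lies among genes of both signs, such as *Stk10* at -0.60 and *Fam196b* at 0.34. The filled point farthest from 0 is *Hbq1b* at -1.48, a gene near the floor with a control mean of 0.717 CPM.

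*Fgf1*, which encodes an FGF that can bind all tyrosine kinase FGF receptors, was at 169, 160, 145, 200 and 210 CPM in control replicates 1 to 5. In *WD1* cKO replicates 1 to 5 it was at 186, 165, 155, 195 and 209 CPM. The groups covered nearly the same range, and in each group replicates 4 and 5 lay above replicates 1 to 3. Across all genes tested, 8.24% had replicates 4 and 5 above replicates 1 to 3 in both groups, and 7.15% had them below. The mean was 177 ± 27.5 CPM (SD, n = 5) in control and 182 ± 22.04 CPM (SD, n = 5) in *WD1* cKO embryos, a log2 fold change of 0.04 with a 95% interval from -0.19 to 0.27 (edgeR, unadjusted p = 0.714).

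The FHFs were led by *Fgf13* (ENSMUSG00000031137, chromosome X of GRCm39 from 58107505 to 58613431). It was at 706, 673, 654, 717 and 687 CPM in control replicates 1 to 5 and at 703, 675, 659, 680 and 669 CPM in *WD1* cKO replicates 1 to 5. Every *WD1* cKO library lay within the control range. The log2 fold change was -0.02 with a standard error of 0.036 and a 95% interval from -0.10 to 0.056 (edgeR, unadjusted p = 0.552), so that the interval lay within 0.15 on either side of 0. *Fgf13* is X-linked, and its levels in the 4 libraries with low *Xist* overlapped those in the others.

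*Fgf12* (ENSMUSG00000022523, chromosome 16 of GRCm39 from 27978850 to 28571820) was at 112, 110, 112, 131 and 138 CPM in control replicates 1 to 5. It was at 122, 122, 112, 136 and 138 CPM in *WD1* cKO replicates 1 to 5. As in *Fgf1*, replicates 4 and 5 lay above replicates 1 to 3 in both groups, and the difference between those sets of replicates was larger than that between the groups. The log2 fold change between the groups was 0.06, with a 95% interval from -0.10 to 0.23 (edgeR, unadjusted p = 0.440). Neuronal markers summed to 10173 and 10375 CPM in control replicates 5 and 4 against 9472 to 10113 CPM in replicates 1 to 3, whereas in *WD1* cKO embryos replicate 4, at 9940 CPM, lay within the range of replicates 1 to 3. Their part in these levels was not tested.

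*Fgf11* was at 52.5, 52.4, 45.2, 52.3 and 51.7 CPM in control replicates 1 to 5 and at 53.9, 54.4, 51.0, 49.0 and 52.8 CPM in *WD1* cKO replicates 1 to 5. Apart from control replicate 3, the libraries lay close together. Its log2 fold change was 0.04 with a 95% interval from -0.07 to 0.15 (edgeR, unadjusted p = 0.432). *Fgf14* was the least abundant FHF, at 4.05, 5.07, 4.42, 5.26 and 4.31 CPM in control and 3.83, 3.53, 4.80, 4.68 and 4.36 CPM in *WD1* cKO replicates 1 to 5. *WD1* cKO replicates 1 and 2 lay below every control library, and the other three lay within the control range. For *Fgf14* the log2 fold change was -0.13 with a 95% interval from -0.37 to 0.12 (edgeR, unadjusted p = 0.282). *Fgf14* was counted 83 to 151 times per library and shares exon bases with *Gm28932* on the other strand.

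The receptor with the highest level was *Fgfr1*, the tyrosine kinase receptor of most neural FGF signalling (ENSMUSG00000031565, chromosome 8 of GRCm39 from 26003670 to 26065734). It was at 260, 252, 259, 250 and 237 CPM in control replicates 1 to 5 and at 248, 248, 251, 255 and 246 CPM in *WD1* cKO replicates 1 to 5. Every *WD1* cKO library lay within the control range. Between the groups its log2 fold change was -0.01 with a standard error of 0.033 and a 95% interval from -0.08 to 0.061 (edgeR, unadjusted p = 0.751), so that, as in *Fgf13*, the interval lay within 0.15 on either side of 0. *Fgfr1* also had the lowest biological coefficient of variation of the 10 genes, at 0.0472.

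*Fgfr2*, which encodes a second tyrosine kinase receptor, varied most, with a biological coefficient of variation of 0.176. It was at 13.3, 14.1, 17.9, 18.0 and 9.99 CPM in control replicates 1 to 5 and at 11.9, 14.4, 16.9, 11.03 and 13.0 CPM in *WD1* cKO replicates 1 to 5. The *WD1* cKO libraries lay within the control range, whose lowest value was that of replicate 5. Its log2 fold change was -0.12 with a 95% interval from -0.46 to 0.23 (edgeR, unadjusted p = 0.471). With each library left out in turn the value ranged from -0.23 (control replicate 5 left out) to -0.03 (control replicate 4 left out), and with the *Xist* covariate it turned to 0.02.

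*Fgfr3*, the receptor that restrains the growth of cartilage (ENSMUSG00000054252, chromosome 5 of GRCm39 from 33879018 to 33894412), was at 7.80, 10.1, 12.9, 8.21 and 8.62 CPM in control replicates 1 to 5. In *WD1* cKO replicates 1 to 5 it was at 9.18, 8.40, 10.002, 8.13 and 6.81 CPM. Control replicate 3 was the highest of the 10 libraries. It was also the library with the most spinal cord marker RNA and, at 6110 CPM against 4425 to 5701 CPM elsewhere, the most connective tissue marker RNA. Control replicate 2, the next highest for *Fgfr3*, held 27.4 CPM of spinal cord and 4610 CPM of connective tissue markers. The part of these tissues in the level of *Fgfr3* was not tested. The log2 fold change was -0.16 with a 95% interval from -0.47 to 0.15 (edgeR, unadjusted p = 0.273). Without control replicate 3 it was -0.03 (edgeR, unadjusted p = 0.782).

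*Fgfrl1* was at 4.73, 5.47, 5.41, 4.56 and 5.37 CPM in control and at 4.76, 5.02, 5.90, 4.93 and 4.39 CPM in *WD1* cKO replicates 1 to 5. Both the highest and the lowest of these were *WD1* cKO libraries. For *Fgfrl1* the log2 fold change was -0.03 with a 95% interval from -0.24 to 0.18 (edgeR, unadjusted p = 0.761). The exons of *Fgfr1* and *Fgfr3* share bases with *Gm16159* and *G630022F23Rik* on the other strand, and the strand setting of the counting is not given in the sources used here, so reads of these overlaps are uncertain. Those of *Fgfr2* share bases with *Ctbp2* on the same strand, where strand cannot tell the genes apart.

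**Figure D3:**
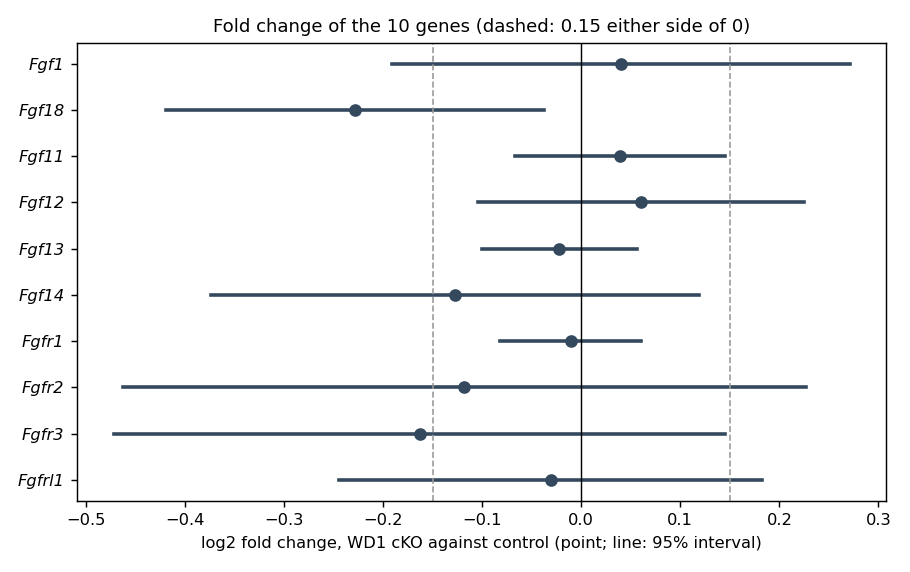
Log2 fold change of *WD1* cKO against control (horizontal axis, point) with its 95% interval (line) for the 10 FGF genes, and dashed lines at 0.15 on either side of 0. The interval of *Fgf18*, from -0.42 to -0.037, leaves out 0, and those of *Fgf11*, *Fgf13* and *Fgfr1* lie between the dashed lines.

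Levels of different genes were compared per kb of exon, with exon lengths of the GENCODE M21 annotation. In control embryos the mean was 171 ± 6.30 CPM per kb (SD, n = 5) for *Fgf13*, which was above 99.3% of the tested genes with a length. *Fgf1* followed at 32.3 ± 5.04, *Fgfr1* at 25.5 ± 0.953, *Fgf12* at 19.4 ± 2.06, *Fgf11* at 16.7 ± 1.04 and *Fgf18* at 8.81 ± 1.01 CPM per kb (SD, n = 5 each). The lowest were *Fgfrl1* at 1.84 ± 0.153, *Fgfr2* at 1.42 ± 0.327, *Fgfr3* at 1.33 ± 0.288 and *Fgf14* at 1.11 ± 0.124 CPM per kb (SD, n = 5 each). The control ranges of the 6 upper genes did not overlap, although the lowest *Fgf1* library, at 26.5 CPM per kb, lay just above the highest *Fgfr1* library, at 26.3 CPM per kb. Among the 4 lowest, the ranges of neighbours in the order overlapped. The order was the same in *WD1* cKO embryos.

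*Fgf13* was the highest and *Fgf18* the sixth also per base of the longest transcript and per coding base, whereas *Fgf1*, *Fgfr1* and *Fgf12* changed places among themselves, as did the 4 lowest. Of the summed FHF level per kb, *Fgf13* made up 81.0 to 82.9% in control and 80.4 to 82.1% in *WD1* cKO libraries. Of the summed level per kb of the 4 receptors, *Fgfr1* made up 82.7 to 86.6% in control and 83.1 to 86.8% in *WD1* cKO libraries. Both shares overlapped between the groups. They were taken per kb of exon only and not on the other lengths.

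**Figure D4:**
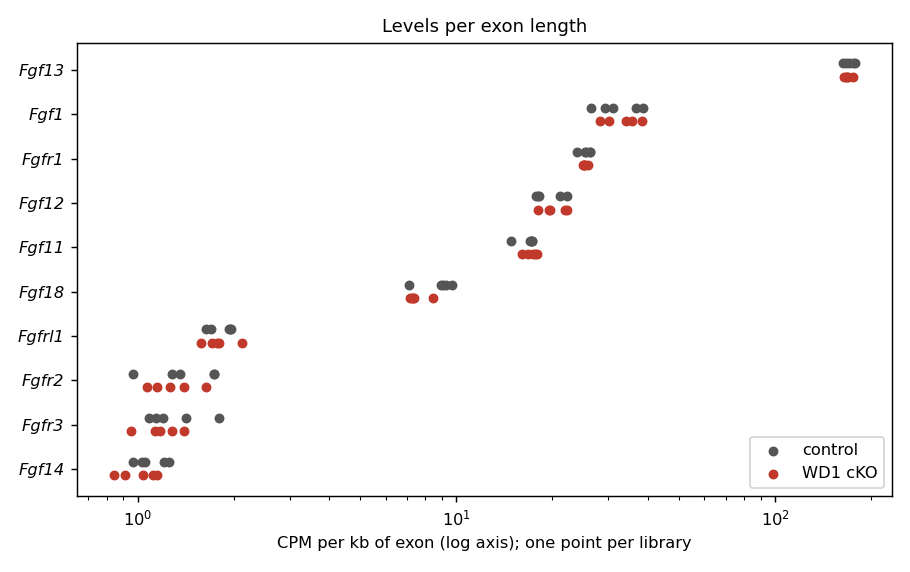
Level of the 10 FGF genes in CPM per kb of exon (horizontal log axis), with 1 point per control (grey) and *WD1* cKO (red) library. *Fgf13* stands apart at 163 to 179 CPM per kb in control embryos, and the 4 lowest genes overlap between 0.967 and 1.97 CPM per kb in those embryos.

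The other genes of the pathway were taken from lists, in none of which edgeR's adjusted p-value fell under 0.05 for any gene. Of the other 16 FGF ligands, 7 passed the filter, and 1 had an unadjusted p-value under 0.05, beside 4.5% of all genes tested. This was *Fgf2*, a ligand that acts on many neural cells and the most abundant of the list, at 19.8 ± 2.33 CPM (SD, n = 5) in control and 23.5 ± 2.23 CPM (SD, n = 5) in *WD1* cKO embryos (edgeR, log2 fold change 0.24, unadjusted p = 0.0153, adjusted p = 1.00). Its groups overlapped, with 3 *WD1* cKO libraries above every control library. The median log2 fold change of the 7 ligands was 0.11. *Fgfr4*, added to the lists after the data were seen, was at 0.405 to 0.968 CPM in control and 0.407 to 0.960 CPM in *WD1* cKO libraries.

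Of the co-receptors, heparan sulfate enzymes and other FGF binding proteins, 28 of 30 were tested, with a median log2 fold change of -0.03. At an unadjusted p-value under 0.05, 4 were lower and 0 higher, beside 2.38% and 2.12% of all genes tested. The groups did not overlap for 2 of them, beside 1.06% of all genes tested. *Hs6st1*, a heparan sulfate 6-O-sulfotransferase, was at 90.8, 89.8, 96.9, 95.5 and 92.4 CPM in control replicates 1 to 5. In *WD1* cKO replicates 1 to 5 it was at 87.6, 88.0, 85.0, 84.2 and 77.5 CPM, so that the groups did not overlap (edgeR, log2 fold change -0.14, SE 0.039, unadjusted p = 0.00371, adjusted p = 1.00). *Gpc1*, a heparan sulfate proteoglycan held at the membrane, was at 256 to 276 CPM in control and 238 to 254 CPM in *WD1* cKO libraries, again without overlap (edgeR, log2 fold change -0.10, unadjusted p = 0.0115, adjusted p = 1.00). The related sulfotransferase *Hs6st3* had a log2 fold change of -0.15 (edgeR, unadjusted p = 0.0353), and *Fgfbp3*, which encodes an FGF carrier protein, one of -0.44 (edgeR, unadjusted p = 0.0241). *Fgfbp3* was counted 39 to 93 times per library. Control replicates 4 and 5 were highest, at 3.42 and 3.43 CPM, while control replicates 1 to 3 overlapped the *WD1* cKO range of 1.67 to 2.39 CPM. The gene of this list with the highest level was *L1cam*, an adhesion molecule, with a log2 fold change of -0.06 (edgeR, unadjusted p = 0.240).

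All 22 genes of signal transduction were tested, with a median log2 fold change of -0.0032. At an unadjusted p-value under 0.05, 1 was lower and 0 higher, beside 2.38% and 2.12% of all genes tested. The gene was *Map2k2*, a MAP kinase kinase, at 102 ± 4.75 CPM in control and 93.7 ± 3.27 CPM in *WD1* cKO embryos (SD, n = 5 each; edgeR, log2 fold change -0.12, unadjusted p = 0.00709, adjusted p = 1.00). *Mapk3*, the most abundant gene of the list, had a log2 fold change of -0.08 (edgeR, unadjusted p = 0.268).

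Of the targets and feedback inhibitors of FGF signalling, 19 of 21 were tested, with a median log2 fold change of -0.03. At an unadjusted p-value under 0.05, 1 was lower and 1 higher, beside 2.38% and 2.12% of all genes tested. *Etv4*, a transcription factor induced by FGF signalling, was at 31.3 ± 3.39 CPM in control and 27.6 ± 2.05 CPM in *WD1* cKO embryos (SD, n = 5 each; edgeR, log2 fold change -0.18, unadjusted p = 0.0348). *Ccnd1*, a cyclin of the G1 phase, was at 68.4 ± 9.95 CPM in control and 85.2 ± 13.6 CPM in *WD1* cKO embryos (SD, n = 5 each; edgeR, log2 fold change 0.32, unadjusted p = 0.0195). *Etv1*, the most abundant of the list and a known transcription factor of proprioceptors, had a log2 fold change of 0.16 (edgeR, unadjusted p = 0.162).

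Among the sodium channel subunits and other known partners of FHFs, the most abundant was *Scn10a*, the sodium channel typical of nociceptors, which was at 1496 ± 144 CPM in control and 1483 ± 58.4 CPM in *WD1* cKO embryos (SD, n = 5 each; edgeR, log2 fold change -0.01, unadjusted p = 0.840).

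**Figure D5:**
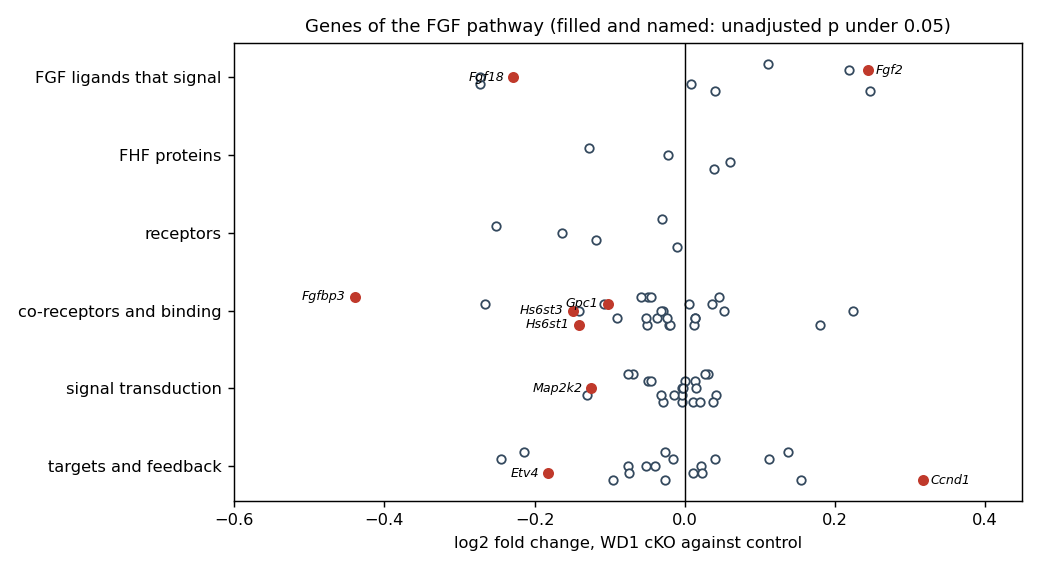
Log2 fold change of *WD1* cKO against control (horizontal axis) of each tested gene, by role in the FGF pathway (rows, with the 10 FGF genes among the ligands, FHFs and receptors and *Fgfr4* among the receptors), with filled and named points for an unadjusted p-value under 0.05. *Fgfbp3* at -0.44 lies farthest below 0, and *Ccnd1* at 0.32 farthest above.

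The genes most like each FGF gene over the 10 libraries were found by Pearson's r of log2 CPM. This is a description, since the libraries share their group and their makeup of cells. Each r is the highest over all genes tested, and with 10 libraries a search of that size can reach high values by chance. The level reached by chance was not tested, so no link between the genes is drawn from these values. *Fgf1* was most like *Cdkl2* (r = 0.98) and *Fgf12* most like *Tmem30a* (r = 0.98). For *Fgf13* it was *Vldlr* (r = 0.95), for *Fgf18* *Mxd1* (r = 0.93), for *Fgfr2* *Fbln1* (r = 0.97) and for *Fgfr3* *Atf6b* (r = 0.96). *Fgf14* was most like *F13a1* (r = 0.92), *Fgfr1* most like *Gstm7* (r = 0.93) and *Fgfrl1* most like *Csf1r* (r = 0.94). The match of *Fgf11* was *Gm32281* (r = 0.95), a gene near the floor with a control mean of 0.488 CPM. *Fbln1* encodes a protein of the extracellular matrix, and *Vldlr* a lipoprotein receptor that also binds reelin.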

How the data were processed

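Bulk RNA of DRG was sequenced from 5 embryos in each group. The authors aligned reads with STAR 2.7.8a to GRCm39 and deposited counts per gene from featureCounts 2.0.1 without normalization. Symbols matched 52081 of 55414 gene identifiers. Exon lengths, overlaps and gene order came from GENCODE M21 (GRCm38), and coordinates in GRCm39 from the study's gene tables. The test was edgeR 4.0.16 (R 4.3.3, TMM, quasi-likelihood, genes reaching 10 counts in 5 or more libraries, Benjamini-Hochberg adjustment over 17490 genes), without covariates. Permutation tests were exact and two-sided, on log2 CPM (prior count 1). The model was tested on simulated data with 200 changed genes. Alternatives included DESeq2 1.42.0, other scalings and filters, the replicate number as a block, the *Xist* level as a covariate, subsets of replicates and each library left out. Named are the 10 FGF genes, *Dach1*, *H2az2*, pathway genes and the 20 neighbours of *Fgf18* with an unadjusted p-value under 0.05, the most abundant gene of each list, and the genes most like an FGF gene. The members and lists were chosen with earlier results of these data known. Some genes of the lists are not reported here.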

Additional observations from a re-analysis of the deposited data

Results flagged for a closer look

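Among the 22 sets of 5 libraries checked for a library far from the others, 3 were found, where about 1.1 would be found by chance. *Fgf11* was at 45.2 CPM in control replicate 3, where the other control libraries held 51.6 to 52.5 CPM. *Fgf18* was at 8.40 CPM in control replicate 5, and the other control libraries held 10.6 to 11.5 CPM. In *WD1* cKO replicate 2, *Fgf18* reached 10.03 CPM, while the rest of the group held 8.52 to 8.74 CPM.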

How the results depend on the processing

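Of 180 values of the 10 FGF genes under 18 alternatives each, 167 kept their direction and 0 had an adjusted p-value under 0.05. *Fgf18* kept its direction in all 18, with log2 fold changes from -0.30 to -0.15. Without control replicate 1 or 3 or *WD1* cKO replicate 5 its unadjusted p-value in edgeR was 0.0503, 0.0582 and 0.0509. In replicates 1 to 3 only the log2 fold change was -0.28 (edgeR, adjusted p = 0.926), and in replicates 4 and 5 only -0.15 (edgeR, adjusted p = 0.877).

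Signs turned for some of the genes. With the *Xist* level as a covariate the log2 fold change was -0.0097 for *Fgf1*, 0.0035 for *Fgfr1* and 0.019 for *Fgfr2*. In replicates 4 and 5 only it was -0.023 for *Fgf1*, -0.027 for *Fgf11* and 0.043 for *Fgfr1*, and in replicates 1 to 3 only 0.0014 for *Fgf13* and 0.0060 for *Fgfrl1*. With each library left out in turn it ranged from -0.024 to 0.11 for *Fgf1*, from -0.032 to 0.0019 for *Fgfr1* and from -0.10 to 0.016 for *Fgfrl1*. The cause was not tested.

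Over all genes, 7 had an adjusted p-value under 0.05. The number was 4 where a mean of 100 counts or more was asked for, 19 in DESeq2, 4 with *Xist* as a covariate, 3 in replicates 1 to 3 only, 3 in replicates 4 and 5 only, and 3 to 6 with each library left out. The study's cut-off was passed by 67 genes, by 128 with no filter on low counts, by 133 with the replicate number as a block, by 142 in replicates 4 and 5 only, and by 52 to 94 with each library left out. The smaller subsets hold fewer libraries.

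Deviations of libraries with the same replicate number correlated at 0.42, 0.014, 0.40, 0.46 and 0.48. Of the 5 control libraries, 4 matched best with their own number. The paper calls the controls littermates, but the labels do not link the numbers to litters. The main test did not pair the embryos. With the replicate number as a block, the standard error was 0.033 for *Fgf1* and 0.032 for *Fgf12*, against 0.106 and 0.076 without it. Their unadjusted p-values in edgeR with the block were 0.201 and 0.0762. With the block, *Fgf18* had a log2 fold change of -0.22 (edgeR, adjusted p = 0.635).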
